A study of Mus musculus with 10 samples.

Results

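The array probes of the EGF receptor (ErbB) family, 4 of its ligands and 2 of its inhibitors were described in the subventricular zone (SVZ) of mice after stroke. The members were all probes that the platform's annotation pairs with Egfr, Erbb2, Erbb3, Erbb4, Tgfa, Hbegf, Nrg1, Nrg3, Errfi1 or Lrig1, which gave 10 of the 19057 genes named on the array and 20 of its 45281 probes. The 4 Tlx overexpressing mice were 2995, 3155, 3157 and 3163, and the 5 wild type mice were c1, c2, 2989, 2996 and 3164. All were of the BL6 strain and 8 weeks old, and in all of them an ischemic stroke had been induced in the striatum of 1 side, so no mouse without stroke was compared. Tlx is the orphan nuclear receptor encoded by Nr2e1, which keeps adult neural stem cells in an undifferentiated state. The labels name neither the promoter that drives the transgene, nor the side that was dissected, nor the time after the stroke.

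ErbB receptors are tyrosine kinases that pair on binding a ligand and pass the signal to the Ras and ERK cascade and to PI3 kinase. EGF, Tgfa and Hbegf bind Egfr, neuregulins as a family bind Erbb3 and Erbb4, and Erbb2 has no known ligand and acts as the partner of the others. Errfi1 (Mig6) binds the kinase domain and blocks it, and Lrig1 is a transmembrane protein that lowers receptor levels. In the adult SVZ, Egfr marks activated stem cells and the fast-dividing transit-amplifying progenitors that give rise to neuroblasts, whereas Erbb4 is known from migrating neuroblasts and interneurons.

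Detection differed between the members. A probe was counted as detected in a mouse where its deposited detection p-value was under 0.05, and was tested where this held in at least 4 of 9 mice. Of the 20 probes, 12 were tested, and the other 8 were detected on none of the 10 arrays. Those 12 stood for 7 of the 10 genes. Erbb3 (1 probe), Erbb4 (2 probes) and Tgfa (1 probe) had no detected probe in either genotype. Detection p-values of the 8 undetected probes ran from 0.0673, for Erbb3 in mouse 2995, to 0.923, for Erbb4 in mouse 3157. Their log2 signals lay between 4.13 and 4.41, where probes without signal sit in these values, so they carry no usable difference between the genotypes. Of oligodendrocyte precursor genes, in whose lineage Erbb3 is expressed, 6 of 7 were tested, and of GABAergic interneuron genes 8 of 9, so those markers were measured where the receptor probes were not. A probe that is not above background does not show that the transcript is absent.

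Egfr, the receptor of the activated progenitors, was higher in the Tlx overexpressing mice. On its brightest probe, ILMN_1241496, the normalized log2 signal was 9.19, 9.56, 9.54 and 9.39 in Tlx overexpressing mice 2995, 3155, 3157 and 3163. It was 8.61, 8.89, 8.64, 8.71 and 8.60 in wild type mice c1, c2, 2989, 2996 and 3164. The genotypes did not overlap, and mouse 2995 was the lowest of the Tlx overexpressing and c2 the highest of the wild type mice. The means were 9.42 ± 0.17 (SD, n = 4) and 8.69 ± 0.12 (SD, n = 5), a difference of 0.73 (SE 0.10, 95% interval 0.52 to 0.94) or 1.66-fold. In the limma fit over all 20401 tested probes the adjusted p was 0.00705, the 15th smallest p of that fit, and the exact two-sided permutation p of this probe alone was 0.00794, the smallest that 4 against 5 mice allow. On the signal before normalization, which is a brightness on a linear scale, the 4 Tlx overexpressing mice read 582.7 to 828.9 and the 5 wild type mice 397.7 to 519.3. The 2 arrays of mouse c1 differed by 0.14 on the log2 scale on this probe. The p-values measure the spread between mice, 1 tissue sample from each. In tissue pieces such as these, more cells of a type and more RNA per cell cannot be told apart.

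**Figure D1:**
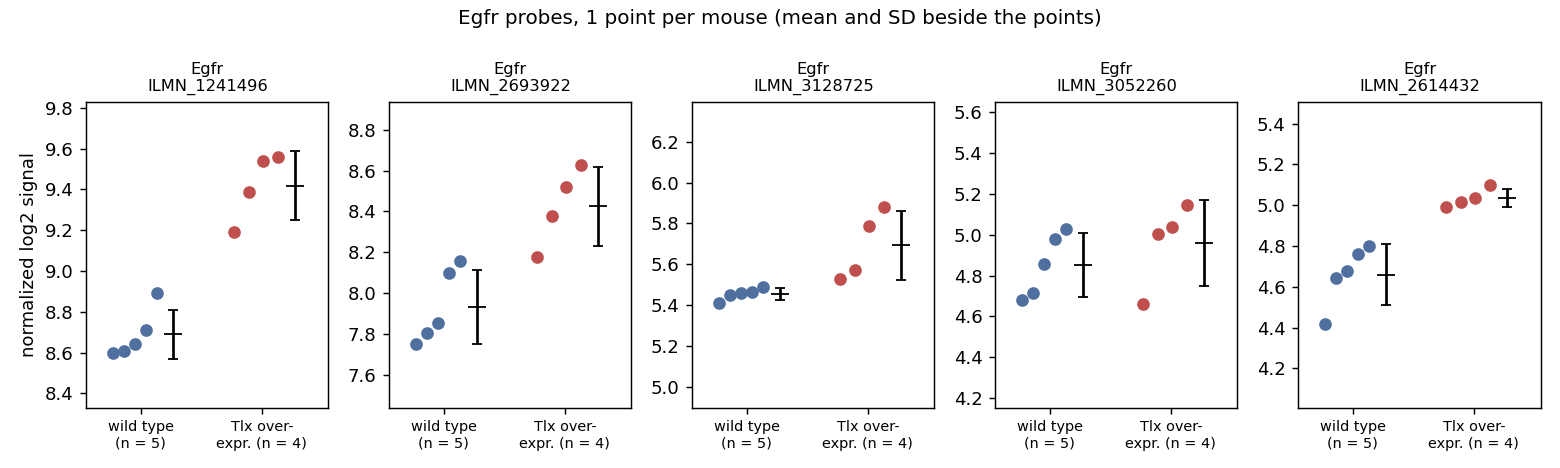
Normalized log2 signal (y axis) of the 5 tested Egfr probes, 1 panel per probe with y axes of equal span, with wild type mice in blue and Tlx overexpressing mice in red; the bar beside each group is its mean with the SD. The genotypes do not overlap on 4 of the 5 probes and overlap on ILMN_3052260.

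The other Egfr probes had the same sign and smaller differences. The array carries 6 Egfr probes, of which 5 were tested, and all 5 were positive. ILMN_2693922, annotated to transcript NM_207655, read 8.18, 8.38, 8.63 and 8.52 in Tlx overexpressing mice 2995, 3155, 3157 and 3163, and 7.81, 8.16, 7.85, 8.10 and 7.75 in wild type mice c1, c2, 2989, 2996 and 3164. Its genotypes did not overlap, but mice 2995 and c2 lay almost level. The difference was 0.49 (SE 0.11, adjusted p = 0.0619), which missed the threshold of 0.05, with an exact permutation p of 0.0159. A second probe of that transcript, ILMN_2614432, was close to background, with 4.99, 5.03, 5.10 and 5.02 against 4.76, 4.80, 4.42, 4.64 and 4.68 in the same order of mice. Wild type mouse 2989 was the 1 mouse in which it was not detected, and the genotypes did not overlap. The difference was 0.38 (SE 0.09, adjusted p = 0.0652), with an exact permutation p of 0.00794.

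The probes annotated to the other transcript, NM_007912, did not pass the threshold either. ILMN_3128725 read 5.53, 5.79, 5.57 and 5.88 in the Tlx overexpressing mice and 5.41, 5.49, 5.45, 5.47 and 5.46 in the wild type mice, in the order of mice used above. The wild type mice lay close together (SD 0.03, n = 5), the Tlx overexpressing mice all above them, and the difference was 0.24 (SE 0.09, adjusted p = 0.181, exact permutation p = 0.00794). ILMN_3052260 read 4.66, 5.00, 5.04 and 5.15 against 5.03, 4.86, 4.72, 4.98 and 4.68, and the genotypes overlapped, mouse 2995 being the lowest of all 9. Its difference of 0.11 (SE 0.11, adjusted p = 0.645, exact permutation p = 0.381) was within the spread between mice. The remaining probe, ILMN_2581001, annotated to a clone sequence, was detected on no array. Near background the offset of 16 added to the signals compresses a difference, so the differences of these probes cannot be set against that of ILMN_1241496.

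The pair of bright Egfr probes can be compared within each mouse. The signal of ILMN_1241496 minus that of ILMN_2693922 was 1.01, 1.18, 0.91 and 0.87 in the Tlx overexpressing mice and 0.80, 0.74, 0.79, 0.61 and 0.85 in the wild type mice. Every Tlx overexpressing mouse lay above every wild type mouse, and mice 3163 and 3164 came closest. The difference between the genotypes was larger on the first probe by 0.23 on the log2 scale (exact two-sided permutation p = 0.00794, a comparison chosen after the values were seen), and by 0.24 with no background correction. The exact tests of the Egfr probes are two-sided and not adjusted over the 5 probes. The annotation gives no transcript accession for ILMN_1241496, and where either probe lies in the gene was not analysed here.

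The stretch before the annotated start of Egfr is shown because Egfr was the only member gene with a probe past the threshold and Tlx acts on transcription. It is chr11:16751953-16752202 of GRCm38.p6, plus strand, from the RefSeq promoter table, with the bases of a GC box (CCGCCC, the complement strand's GGGCGG, a motif bound by Sp1) in capitals.
Egfr: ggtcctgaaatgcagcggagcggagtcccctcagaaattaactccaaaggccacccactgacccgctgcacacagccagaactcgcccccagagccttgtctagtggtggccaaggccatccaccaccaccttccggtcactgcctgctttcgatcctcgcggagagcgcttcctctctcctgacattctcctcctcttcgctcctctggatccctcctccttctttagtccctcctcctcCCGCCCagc
GGGCGG or its reverse complement occurred 1 time in these 250 bases, and in 32.7% of all 32851 promoters of that length. AAGTCA, the half-site that Tlx binds, was searched on both strands and did not occur in the window, while 13.1% of all promoters held it. TATAAA, also searched on both strands, did not occur there either, and 12.4% of all promoters held it. Of the 8 promoters examined, which belong to 7 member genes, 1 held AAGTCA, a start of Errfi1. No promoter of Erbb3, Hbegf or Nrg1 was among those examined. A match or its absence says only which letters stand in this window.

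Among the 12 tested member probes, 1 was called, Egfr ILMN_1241496, where 0.941% of all tested probes were called in either direction and 0.539% as higher (0.402% as lower). The groups of mice did not overlap on 4 of the 12, all of them Egfr probes, where 6.28% of all tested probes did not overlap (3.24% higher and 3.04% lower). An unadjusted limma p under 0.05 was reached by 5 of the 12 member probes, 1 of Lrig1 and 4 of Egfr, and by 17.6% of all tested probes. The median log2 difference was 0.08 over the 12 and 0.00 over all tested probes. As 5 of the 12 probes measure 1 gene, these counts are mostly counts of Egfr.

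**Figure D2:**
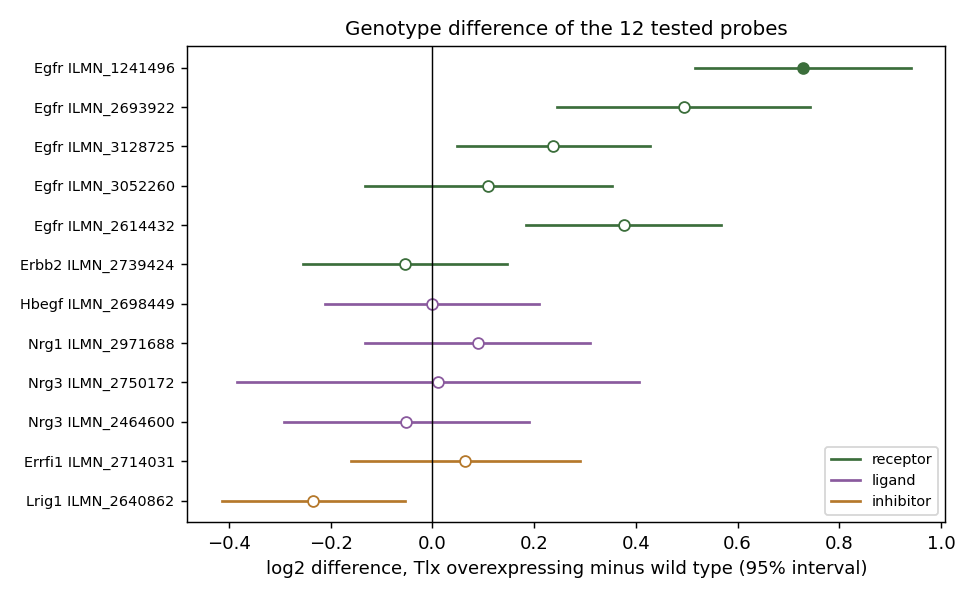
Log2 difference between the genotypes, Tlx overexpressing minus wild type (x axis), for the 12 tested probes (y axis), with the 95% interval from the limma fit; the filled point passed the adjusted p threshold of 0.05. Egfr ILMN_1241496 at 0.73 is the only filled point, and the intervals of Egfr ILMN_3052260, Erbb2, Hbegf, Nrg1, Nrg3 and Errfi1 include 0.

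Erbb2, the ligandless partner receptor, was detected in all 9 mice and showed no difference beyond its spread. Its probe ILMN_2739424 read 5.43, 5.23, 5.50 and 5.29 in the Tlx overexpressing mice 2995, 3155, 3157 and 3163. In wild type mice c1, c2, 2989, 2996 and 3164 it read 5.50, 5.50, 5.21, 5.51 and 5.37. The lowest and the highest mouse were both wild type. The difference was -0.05 (95% interval -0.25 to 0.15, adjusted p = 0.801), and a change within this interval is not excluded. The interval is for this probe alone and the threshold is adjusted over all tested probes, so it does not give the smallest change that would be called. The sign of the small difference turned in fits with a term for the range of mouse numbers (0.02) or for choroid plexus genes (0.10). The difference of Erbb2 from Egfr in its response to genotype was not tested.

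None of the tested ligand probes passed the threshold. Hbegf, a membrane-anchored ligand that is shed to reach Egfr, read 6.89, 7.05, 6.98 and 7.08 on ILMN_2698449 in the Tlx overexpressing mice and 7.08, 6.92, 7.02, 7.22 and 6.76 in the wild type mice. The SD was 0.08 (n = 4) and 0.17 (n = 5), and the 95% interval of the difference ran from -0.21 to 0.21 (adjusted p = 0.999). The wild type mice enclosed all 4 Tlx overexpressing mice. The difference was -0.23 within mice 2995, 2989 and 2996 and 0.27 within 3155, 3157, 3163 and 3164, so it had no common sign in the mouse number ranges. A second Hbegf probe was detected on no array.

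The neuregulins Nrg1 and Nrg3 differed in how many of their probes gave signal. Nrg1 was detected by 1 of 3 probes, and ILMN_2971688 read 5.76, 5.70, 5.78 and 5.64 in the Tlx overexpressing mice and 5.34, 5.71, 5.89, 5.64 and 5.57 in the wild type mice. The genotypes overlapped, and the difference of 0.09 (95% interval -0.13 to 0.31, adjusted p = 0.691) did not pass. It was 0.02 without mouse c1 and 0.15 without mouse 2989, and its sign turned when choroid plexus genes entered the fit (-0.02). Nrg3, which is expressed mainly in neurons, was detected in all 9 mice by ILMN_2750172, with 5.76, 6.37, 5.63 and 5.54 in the Tlx overexpressing mice and 5.53, 5.56, 6.07, 6.22 and 5.68 in the wild type mice. It had the largest SD of the 12 probes in both genotypes, 0.38 (n = 4) and 0.32 (n = 5), and the difference was 0.01 (95% interval -0.38 to 0.41, adjusted p = 0.984).

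The spread of Nrg3 lay across the genotypes rather than between them. Its highest mice were 3155, 2996 and 2989, and these also had the highest levels of the general and glutamatergic neuron list, at 1.02, 0.69 and 0.78, where the other 6 mice lay between -1.35 and 0.10. A list level here is the mean log2 signal of its tested genes (5 of 8 in this list), each centred over the 9 mice. Whether neuronal tissue in the dissected pieces accounts for the Nrg3 values was not tested. The dimmer Nrg3 probe, ILMN_2464600, was detected in 3 of 4 and 3 of 5 mice, and its difference of -0.05 (adjusted p = 0.849) was within the spread. Leaving out mouse 3155 moved the difference of the brighter probe to -0.17, and leaving out 2989 moved that of the dimmer one to 0.03. Within mice 2995, 2989 and 2996 the brighter probe differed by -0.39, and within 3155, 3157, 3163 and 3164 by 0.16.

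Of the inhibitors, Lrig1 had a lower mean in the Tlx overexpressing mice, by an amount that missed the threshold, and Errfi1 was within its spread. Lrig1 ILMN_2640862 read 7.792, 7.677, 7.678 and 7.690 in Tlx overexpressing mice 2995, 3155, 3157 and 3163, and 7.933, 7.898, 8.122, 7.973 and 7.790 in wild type mice c1, c2, 2989, 2996 and 3164. The groups touched in 1 place, where Tlx overexpressing mouse 2995 lay just above wild type mouse 3164. The means were 7.71 ± 0.06 (SD, n = 4) and 7.94 ± 0.12 (SD, n = 5), a difference of -0.23 (SE 0.08, 95% interval -0.41 to -0.05). The unadjusted limma p was 0.0146 and the adjusted p 0.168. In each of the 9 fits that left out 1 mouse the difference lay between -0.27 and -0.19, and none passed the threshold.

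Errfi1, the feedback inhibitor that is itself induced by EGF signalling, read 9.166, 9.125, 8.997 and 9.166 on ILMN_2714031 in the Tlx overexpressing mice and 8.97, 8.81, 9.29, 9.23 and 8.96 in the wild type mice. The wild type mice enclosed the Tlx overexpressing ones, and the difference was 0.06 (95% interval -0.16 to 0.29, adjusted p = 0.785). It was 0.005 without mouse c2 and 0.12 without mouse 2989, and -0.09 within mice 2995, 2989 and 2996. The 2 arrays of mouse c1 differed by 0.26 on this probe, the largest such gap among the tested member probes. The SD of Errfi1 was 0.20 in the wild type (n = 5) and 0.08 in the Tlx overexpressing mice (n = 4).

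**Figure D3:**
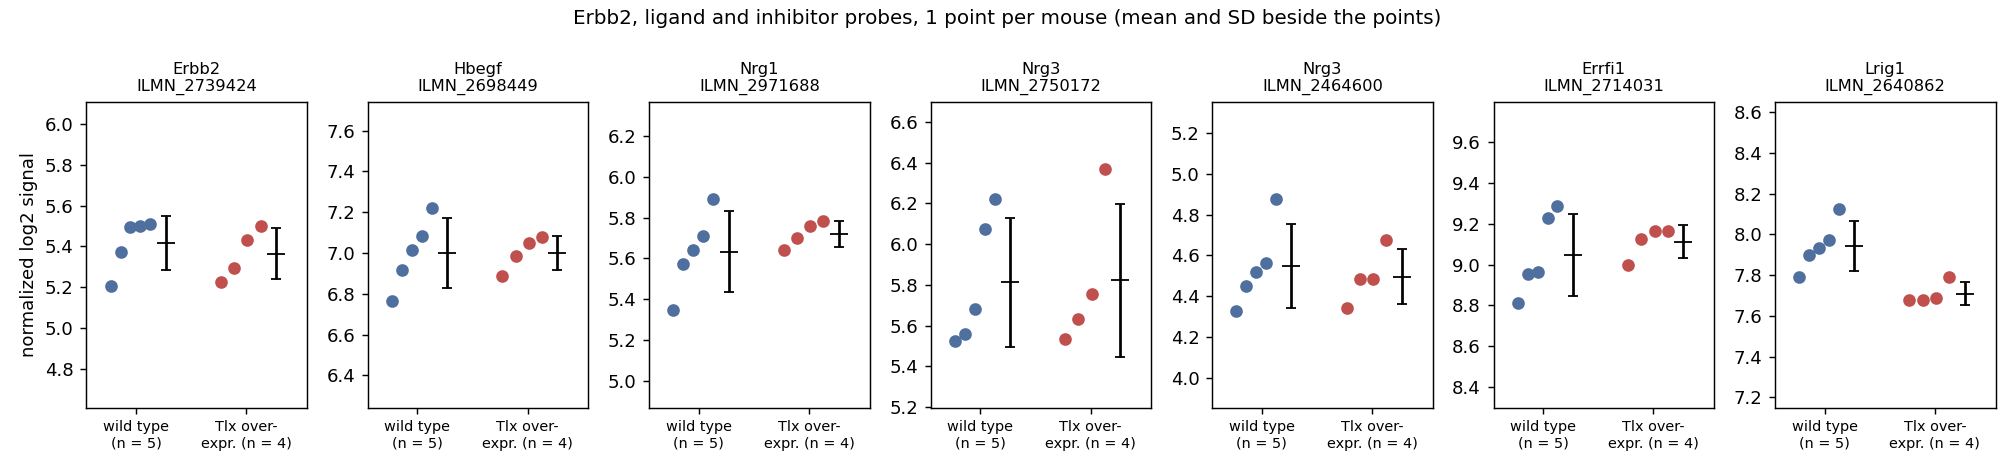
Normalized log2 signal (y axis) of the 7 tested probes of Erbb2, Hbegf, Nrg1, Nrg3, Errfi1 and Lrig1, 1 panel per probe with y axes of equal span, with wild type mice in blue and Tlx overexpressing mice in red and the mean with SD beside each group. The genotypes overlap in every panel, and in the Lrig1 panel only mouse 2995 reaches the lowest wild type mouse.

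The rest of the pathway showed no call. The lists held 98 further genes, of which 63 were tested on their brightest probe, and 0 of the 63 passed in limma in either direction, where 1.13% of all named genes did (0.624% higher and 0.501% lower). An unadjusted p under 0.05 was reached by 10 of the 63 (15.9%), 7 higher and 3 lower, and by 18.2% of all named genes. The median log2 difference was -0.01 over the 63 genes and 0.00 over all named genes, with 27 of the 63 positive. The groups of mice did not overlap for 5 of the 63, Rhbdf1, Nck1, Dusp4, Etv1 and Ccnd1, where 6.28% of all tested probes did not overlap. That share is over probes, and the share over genes on their brightest probe was not computed.

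Few other ligands of the family were tested. Of 7, which include the neuregulins Nrg2 and Nrg4, 5 had a named probe on the array. Epgn and Btc were tested, and both lay near background. Epigen, Epgn, was detected in 4 of 4 Tlx overexpressing and 2 of 5 wild type mice, with a difference of 0.19 (SE 0.09, adjusted p = 0.269) and of 0.08 on another probe. Betacellulin, Btc, was detected in 2 mice of each genotype and differed by 0.11 (adjusted p = 0.623). Egf, Areg, Ereg, Nrg2 and Nrg4 were not tested.

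None of the 5 tested genes of ligand shedding passed the threshold. Rhbdf1 (iRhom1) helps the sheddase Adam17 to mature, and read 7.47, 7.47, 7.36 and 7.41 in the Tlx overexpressing mice and 7.27, 7.26, 7.05, 7.02 and 7.28 in the wild type mice. Its difference of 0.25 (SE 0.08, adjusted p = 0.143) did not pass. Adam17 itself, which releases Tgfa and Hbegf from the membrane, differed by -0.21 (adjusted p = 0.304), and another of its probes by 0.00. Timp3, an inhibitor of Adam17, differed by -0.26 (adjusted p = 0.238), and by -0.12 on another probe. None of the 10 tested genes of receptor turnover passed. On the brightest probe of each, the smallest p were those of the phosphatase Ptprk with -0.21 (adjusted p = 0.432), Socs5, which promotes breakdown of Egfr, with -0.13 (adjusted p = 0.518), and Sh3kbp1, a partner of the ubiquitin ligase Cbl, with 0.09 (adjusted p = 0.709). Other probes gave -0.09 for Ptprk and 0.27 (adjusted p = 0.17), 0.17 and 0.09 for Sh3kbp1.

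In the signal relay list 23 of 37 genes were tested and 11 of the 23 were positive. Shc3, a neuronal adaptor of receptor tyrosine kinases, differed by 0.30 (SE 0.09, adjusted p = 0.123). The adaptor Nck1 lay lower in every Tlx overexpressing mouse (6.13 to 6.26) than in every wild type mouse (6.28 to 6.69), with a difference of -0.33 (SE 0.10, adjusted p = 0.128). Akt2, a kinase downstream of PI3 kinase, differed by -0.25 (adjusted p = 0.24).

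The ERK feedback and target list spread the widest, from -0.64 for the immediate early gene Fos to 0.86 for Etv1, and 9 of its 23 tested genes were positive. Dusp4, a phosphatase that switches off ERK, read 5.94, 6.32, 6.35 and 6.02 in the Tlx overexpressing mice and 5.79, 5.74, 5.69, 5.32 and 5.64 in the wild type mice. The groups did not overlap, and the difference was 0.52 (SE 0.12, adjusted p = 0.0595), with 0.41 and 0.16 on its other probes. Etv1, an ETS transcription factor, read 5.82, 6.79, 6.17 and 6.20 against 5.43, 5.74, 5.32, 4.65 and 5.80, a difference of 0.86 (SE 0.23, adjusted p = 0.0842), with 0.76 and 0.07 on its other probes. The G1 cyclin Ccnd1 differed by 0.29 (SE 0.08, adjusted p = 0.102), with 0.42 and 0.24 on its other probes. Dusp4 and Etv1 passed the threshold without mouse 2995, in a fit that called 754 probes in all. Of the other Dusp, Spry and Spred genes of this list that were tested, which code for inhibitors of ERK signalling, Dusp6 differed by -0.21, Dusp5 by -0.17, Spred1 by -0.09, Dusp1 by -0.08, Spred2 by -0.03, Spry3 by -0.003 and Spry4 by 0.09. None of these passed the threshold. The Fos signal was 7.16 and 6.90 in wild type mice 2989 and 2996 and 5.03 to 5.59 in the other 7 mice. Dusp6 was also highest in those mice, at 10.07 in both, with 9.23 to 9.51 in the others. These 2 wild type mice did not stand apart on Egfr.

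**Figure D4:**
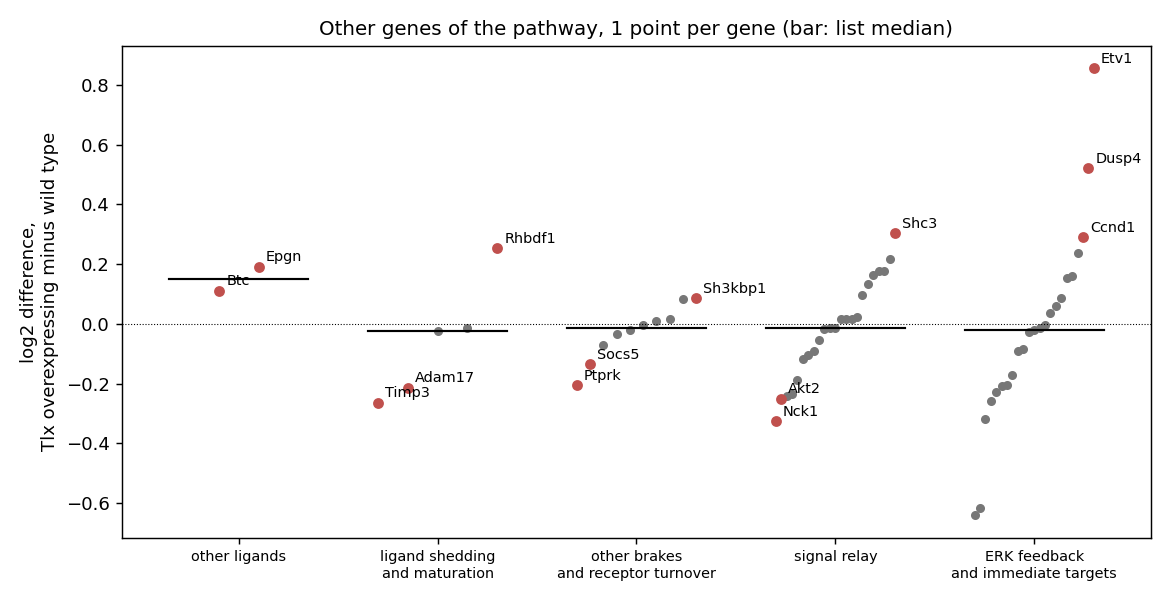
Log2 difference between the genotypes (y axis) of the 63 tested pathway genes other than the members, grouped by list (x axis), 1 point per gene with the list median as a bar; red points are the genes named by rule. Etv1 (0.86) and Dusp4 (0.52) are the highest points, and the list medians lie between -0.02 and 0.15.

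The genes whose signal followed Egfr ILMN_1241496 most closely over the 9 mice were Ptbp2, Fbln2, Tubb2b and Jpt1. Pearson's r was 0.98 for the splicing regulator Ptbp2 (Spearman's rho 0.93), 0.98 for the matrix protein Fbln2 (0.88), 0.98 for Tubb2b, a tubulin of immature neurons (0.95) and 0.97 for Jpt1 (0.88). The genotype differences of these 4 were 0.31, 0.82, 0.45 and 0.38, of which those of Fbln2 (adjusted p = 0.00108) and Tubb2b (adjusted p = 0.0367) passed, so the correlation holds the genotype difference that they share with Egfr, and it is a description of 9 mice picked from 20401 probes. The closest to Erbb2 were Homez (r = 0.97), Virma (0.95), the hedgehog signal transducer Smo (0.94) and Mtap (0.91), with genotype differences between -0.15 and -0.03.

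Mean levels of several cell type marker lists also differed between the genotypes, and no list's difference was tested. The mean level in Tlx overexpressing minus that in wild type mice was -0.77 for choroid plexus, 0.58 for general and glutamatergic neurons, 0.49 for neuroblasts, 0.36 for transit-amplifying progenitors, 0.25 for GABAergic interneurons and -0.24 for ependyma. It was 0.19 for microglia, 0.13 for pericytes and smooth muscle, 0.12 for oligodendrocyte precursors, 0.07 for myelin, -0.10 for striatal projection neurons, -0.08 for stem cells and astrocytes and -0.06 for endothelium. On the general and glutamatergic neuron list the genotypes overlapped, and 0 of its tested genes passed the threshold. Its level was 0.08 to 1.02 in the Tlx overexpressing and -1.35 to 0.78 in the wild type mice. Of the transit-amplifying list, which holds no member here, 5 of 7 genes were tested, all 5 were positive with 0 past the threshold, and its level was 0.01 to 0.37 in the Tlx overexpressing and -0.32 to 0.08 in the wild type mice. Wild type c2 had the highest level and the highest Egfr signal of its genotype. The neuroblast list had 5 of 8 genes tested and all 5 positive, 2 of them past the threshold, with a level of 0.14 to 0.40 against -0.34 to 0.09. The choroid plexus list, the secretory epithelium that borders the dissected tissue, had 11 of 13 genes tested and all 11 negative, 2 of them past the threshold, at -1.04 to 0.18 against 0.05 to 0.68. The part of the other lists in the Egfr result was not tested.

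Once the choroid plexus level entered the fit, the difference of Egfr ILMN_1241496 was 0.55 (SE 0.14, adjusted p = 0.452), with the transit-amplifying level it was 0.44 (SE 0.14, adjusted p = 0.986), and without mice 3155 and c1, the extremes of the choroid plexus level, 0.66 (SE 0.11, adjusted p = 0.0639). The last 2 of these fits were chosen after values had been seen. The call was lost in each of the 3, and the direction stayed. Calls fell over the whole array too, from 192 in the main fit to 6 with the choroid plexus level and 31 without mice 3155 and c1. The adjusted p of 0.986 was shared by every tested member probe in the transit-amplifying fit, so it was not particular to Egfr. Calls over the whole array were not counted in that fit. With the transit-amplifying level, the difference of ILMN_2693922 went to 0.09 (SE 0.14).

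**Figure D5:**
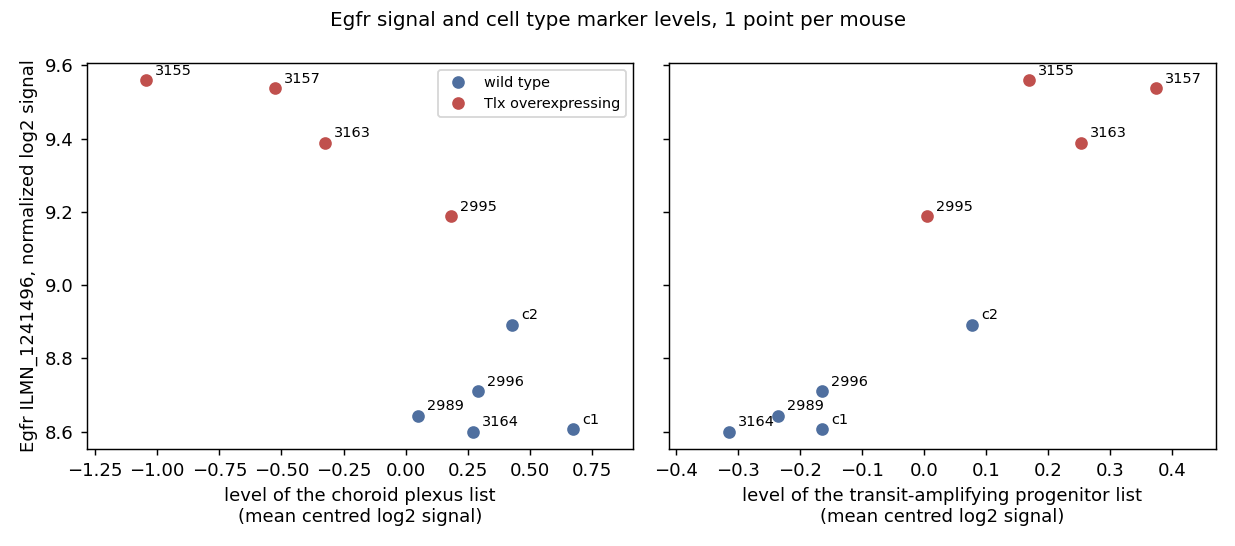
Normalized log2 signal of Egfr ILMN_1241496 (y axis) against the level of the choroid plexus list (left, x axis) and of the transit-amplifying progenitor list (right, x axis), 1 labelled point per mouse, wild type in blue and Tlx overexpressing in red. The 4 Tlx overexpressing mice lie at 9.19 or above and the 5 wild type mice at 8.89 or below in Egfr, and mouse 2995 lies within the wild type range of both lists.

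The call of Egfr ILMN_1241496 held when any 1 mouse was left out, with differences of 0.68 to 0.81 and adjusted p of 0.00377 to 0.0486, and in a fit with a block for mouse numbers of 1 range (2989 to 2996, 3155 to 3164, c1 and c2), at 0.72 (SE 0.12, adjusted p = 0.0353). Within mice 2995, 2989 and 2996 the difference was 0.51, and within 3155, 3157, 3163 and 3164 it was 0.90. The same values were 0.20 and 0.76 for ILMN_2693922, 0.07 and 0.29 for ILMN_3128725, -0.19 and 0.38 for ILMN_3052260, and 0.46 and 0.37 for ILMN_2614432. Each of those ranges has a single mouse of 1 genotype, and the labels give the ranges no meaning. The block of c1 and c2 holds no Tlx overexpressing mouse, so these mice do not enter the genotype difference of the blocked fit. ILMN_2693922 passed the threshold without mouse 2995 (0.58, adjusted p = 0.0213) and without mouse c2 (0.55, adjusted p = 0.0461), the mice at which its groups came closest.

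Across the series, 20068 to 20590 probes were detected per array, and the marker lists of the SVZ were measured, with 10 of 12 genes of stem cells and astrocytes and 5 of 8 of neuroblasts tested. Nr2e1, the targeted gene, read 5.27 to 5.61 in the Tlx overexpressing and 4.69 to 5.19 in the wild type mice on its 1 probe (difference 0.41, adjusted p = 0.0839), which need not measure the transgene. The number of arrays limits the precision of all values.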

How the data were processed

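Biotinylated cRNA from SVZ taken by laser microdissection was hybridised to Illumina bead arrays, per the labels' protocols. The authors deposited the probe intensity, on a linear scale, in 2 tables. The one called non-normalized had 1 shared maximum in all columns and was already quantile-normalized, and the other held the signals before normalization between arrays, which were used here. A detection p-value for each signal was deposited in the former, per the file headers. The software and background treatment before deposit are not given in the sources used here.

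The function neqc (limma 3.58.1, R 4.3.3) subtracted background by normexp, estimating the negative controls through the deposited detection p-values, added an offset of 16, equalised quantiles and took log2. The 2 arrays of wild type mouse c1 were averaged and counted as 1 mouse, detected only if both arrays were. Probes detected (p under 0.05) in at least 4 of 9 mice were tested, 20401 in all, by limma's moderated two-sided test (lmFit, eBayes), with p-values adjusted by Benjamini-Hochberg over all of them and a threshold of 0.05. Adjusted p-values are from this model, or from the same limma test in the alternative fit that the sentence names. Symbols came from the platform's annotation, updated by gene ID through the RefSeq table of GRCm38.p6 (34807 probes matched), and genes with several probes are counted on the brightest tested one. Signals of different probes are not comparable. Every member probe is named; from each pathway list the genes past the threshold were named, or else the up to 3 with the smallest p, and for each receptor the 4 genes with the highest Pearson's r. Fos, Spry3, Spry4, Spred1, Spred2, Dusp1, Dusp5 and Dusp6 fall outside this rule and were added after values were seen. The members and lists were chosen with earlier results of these data known. The fit was tested on simulated data. Alternatives were other background, scaling and filter settings, single c1 arrays, each mouse left out, blocks, covariates and array weights.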

Additional observations from a re-analysis of the deposited data

Results flagged for a closer look

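Mouse 2995 stood apart from the other Tlx overexpressing mice on Lrig1 ILMN_2640862, with a log2 signal of 7.79 where the others lay between 7.68 and 7.69. Mouse 3157 stood apart on Btc ILMN_2734097, with 4.87 where the other Tlx overexpressing mice lay between 4.40 and 4.47. These were 2 of 52 groups of mice examined with Dixon's test, which marks about 1 in 20 groups by chance.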

How the results depend on the processing

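No paired analysis was possible because mice of the genotypes share no number in the labels. Egfr ILMN_1241496 stayed positive in all 25 alternatives and lost its call in 3 of the 23 that gave a test: 0.55 with the choroid plexus level and 0.44 with the transit-amplifying level as a covariate, and 0.66 without mice 3155 and c1 together. It was 0.51 within mice 2995, 2989 and 2996, and 0.68 to 0.81 with 1 mouse left out. The count of called probes, 192, was 754 without mouse 2995, 71 without 3155, 26 without 3157, 39 without 3163, 63 without c1, 84 without 2996 and 122 without 3164. It was 122 with an offset of 50, 56 with no filter on dim probes, 51 with the mouse number range as a block, 6 with the choroid plexus level, 609 with array weights and 31 without mice 3155 and c1 together. The count of called member probes, 1, was 0 with the choroid plexus level, 0 without 3155 and c1 together, 3 with array weights, and 1 to 2 with 1 mouse left out. The count of called pathway genes, 0, was 1 with array weights (Dusp4) and 0 to 2 with 1 mouse left out, the 2 being Dusp4 and Etv1 without mouse 2995. Several uncalled values close to 0 changed sign. Hbegf ILMN_2698449 read 0.012 with median normalization, 0.009 with c1 repeat 2 alone, 0.037 with the block, 0.027 with array weights, 0.0045 without 3155 and c1, and -0.059 to 0.055 with 1 mouse left out. Nrg3 ILMN_2750172 read -0.099 with the block, -0.46 given the choroid plexus level, -0.24 without 3155 and c1, and -0.17 to 0.11 with 1 mouse left out. Nrg3 ILMN_2464600 read 0.078 with the transit-amplifying level and -0.11 to 0.031 with 1 mouse left out. Erbb2 read 0.018 with the block, 0.10 given the choroid plexus level and 0.013 without 3155 and c1. Nrg1 read -0.018 with the choroid plexus level, and Egfr ILMN_3052260 read -0.16 with the transit-amplifying level. Within mice 2995, 2989 and 2996, Egfr ILMN_3052260 was -0.19, Errfi1 -0.09, Nrg1 -0.0042, Erbb2 0.072, Hbegf -0.23 and Nrg3 ILMN_2750172 -0.39. Within 3155, 3157, 3163 and 3164, Hbegf was 0.27. With 1 mouse left out, Errfi1 ranged from 0.005 to 0.12 and Nrg1 from 0.017 to 0.15. The cause of these changes was not tested. No slide was named in the files, so a slide block was not run. Lrig1 stayed negative and uncalled throughout, and the within-mouse difference of the bright Egfr probes lay between 0.17 and 0.28 in 13 alternatives.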
